A study of Drosophila melanogaster with 35 samples.

Results

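CG12164, CG15510, CG33017, CG11854, CG11349 and c-cup are 6 of the 14279 fly genes measured in heads, and they were chosen by their measured levels, which moved by more than 4 log2 units between genotypes. Those same values are described here, so the differences of these 6 genes between genotypes are given as a description with no test. Tests were run only on other genes: the neighbours of each gene on the chromosome and the other genes of the same family. The gene lists and tests were chosen with earlier results of these data known. Each test used the contrast in which the chosen gene itself differed the most, so the tests are not independent of the choice.

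RNA was sequenced from adult heads of Drosophila melanogaster at 1 week of age, in 35 libraries of 12 genotypes. All flies carried Repo-LexA, a driver active in all glial cells, together with a GAL4 driver. The 6 elav genotypes (18 libraries, 3 each) had elav-gal4, which acts in neurons, written over Y as in male flies. The 6 GMR genotypes (17 libraries, 3 each except 2 for GMR Tau) had GMR-gal4, which acts in the retina, and their labels write Repo-LexA over + and name no Y. Within elav these were the drivers alone (elav control), LexAop2-TREM2-WT,TYROBP, LexAop2-TREM2-R47H,TYROBP, UAS-Aβ42, and Aβ42 with either TREM2 construct. Within GMR they were the drivers alone (GMR control), the same TREM2 constructs, UAS-Tau, and Tau with either construct. Each library came from pooled heads, and the sources used here do not say whether libraries of a genotype were separate collections, so any p-value measures the spread between these libraries, which may be technical. TREM2 and TYROBP therefore acted in glia, Aβ42 in neurons and Tau in the retina, and an inserted construct brings its own chromosome with it, so that a construct and the background of its stock cannot be told apart.

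TREM2 is a receptor of human microglia and TYROBP its signalling adaptor, and R47H is a TREM2 variant linked to the risk of Alzheimer's disease. LexA and GAL4 are separate activators from outside the fly, each of which switches on constructs that carry its own binding sites (LexAop2 or UAS), so a gene can be driven in glia and another in neurons of the same head. In bulk heads, a loss of cells that express a gene and a loss of RNA per cell cannot be told apart.

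Libraries of both drivers held the markers of neurons, glia and photoreceptors, with every neuron marker at 7.81 or above on the log2 scale and every photoreceptor marker at 9.41 or above. Markers of sex differed between the drivers, although the methods name male flies for sequencing. The yolk protein genes Yp1, Yp2 and Yp3, made by females, lay between 7.64 and 18.54 in the 17 GMR libraries and between -0.76 and 8.02 in the 18 elav libraries. The roX2 RNA of the male X chromosome ran the other way, from -1.41 to 4.93 in GMR and from 7.30 to 9.51 in elav. Driver and these sex markers cannot be told apart, so levels are compared within a driver. Within GMR the sex markers also differed between genotypes. The summed Yp level was 16.36 to 16.92 in GMR control and 11.30 to 14.82 in GMR Tau/TREM2-WT/TYROBP, and the summed level of the male markers (roX1, roX2 and msl-2) was 6.11 to 6.32 and 6.94 to 8.73. Their part in the differences within GMR was not tested. In GMR TREM2-WT/TYROBP replicate 1 the back-transformed values summed to 2.03 times a CPM total, against at most 1.25 times in any other library. The summed Yp level of this genotype ran from 15.15 to 19.87, the latter the highest of the GMR libraries. Its summed male markers ran from 5.27 to 6.76. The part of the Yp genes in the total of replicate 1 was not tested. The neighbours of CG12164 and CG11349 were tested in this genotype against GMR control.

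The unit is the deposited log2 CPM, log2 of read counts scaled to a common library total, after scaling between libraries and adjustment for RNA integrity (RIN). Read depth is unknown. The lowest 1% of genes of a library ended between -7.10 and -5.75, so levels below about these values lie at the bottom of the measured range and a difference from them depends on how the smallest values were treated before the logarithm. For that reason the differences are kept on the log2 scale and no fold is given.

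The range of a gene is the highest less the lowest of its 12 genotype means. It was 8.48 for CG15510, 8.01 for c-cup, 7.42 for CG11349, 7.25 for CG12164, 6.03 for CG33017 and 4.05 for CG11854. The median range over all genes was 0.57, and 259 of 14279 genes (1.81%) exceeded 4. CG15510 stood 14th from the top of all genes by range, and CG11854, the closest of the 6 to the limit, stood 245th. At the limit itself, Su(Ste):CR42407 lay just inside at 4.00002 and CG14277 just outside at 3.998. Leaving out elav TREM2-WT/TYROBP replicate 1 brought the range of CG11854 to 3.63, under the limit.

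**Figure D1:**
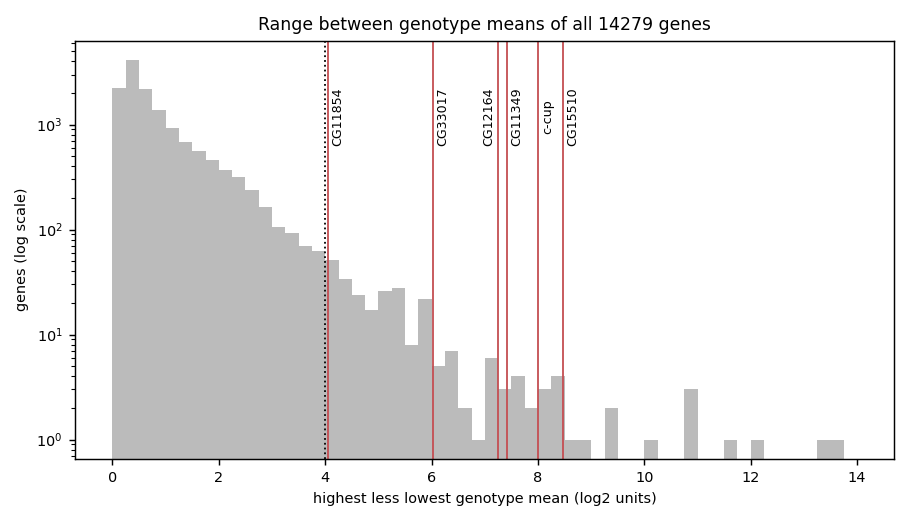
Number of genes (vertical axis, log scale) by range between genotype means in log2 units (horizontal axis), with red lines at the 6 genes and a dotted line at the limit of 4. The 6 genes run from 4.05 (CG11854) to 8.48 (CG15510), where the whole table has a median of 0.57.

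The 6 genes are protein-coding and lie on 4 chromosome arms of BDGP6. CG12164 (FBgn0033158) spans 2R:7311395-7313495 on the plus strand, and CG33017 (FBgn0053017) spans 2R:16272114-16277655, also plus. CG15510 (FBgn0039707) spans 3R:29835950-29837447 and CG11854 (FBgn0039299) 3R:25242020-25243262, both plus. CG11349 (FBgn0035550) spans 3L:4473068-4475095 on the plus strand and c-cup (FBgn0031367) 2L:1831627-1832565 on the minus strand. Ensembl release 115 gives CG15510 the symbol Prtl99C, a protamine-like protein of sperm chromatin, while CG11854 belongs to the takeout family of secreted carriers of small lipids. c-cup is among the comet and cup genes, which are transcribed after meiosis in the male germline. The library kit did not keep strand, so the reads of a gene and of an overlapping gene on the other strand cannot be told apart. That touches CG15510, which shares 248 exonic bases with CG42592, and CG11854, which shares 224 with bam.

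CG12164 was high without a TREM2 construct and low with either of them, in both drivers. It read 4.35, 4.30 and 4.62 in elav control and 4.07, 3.93 and 3.03 in elav Aβ42. In the GMR heads it read 3.93, 3.96 and 4.13 in the control and 4.30 and 4.28 in Tau. So all 11 libraries without a TREM2 construct lay between 3.03 and 4.62. With TREM2-WT/TYROBP the elav libraries read -0.43, 0.13 and -0.14, and with TREM2-R47H/TYROBP 0.32, -0.02 and -0.28. Beside Aβ42 the level was lower still, at -1.72, -1.80 and -2.60 with TREM2-WT and -1.64, -2.01 and -2.31 with TREM2-R47H. The elav libraries with a construct therefore formed a higher set near 0 without Aβ42 and a lower set near -2 with it, and these sets did not overlap.

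In GMR heads CG12164 read -2.87, -2.40 and -3.21 with TREM2-WT/TYROBP and -1.27, -2.13 and -2.22 with TREM2-R47H/TYROBP. With Tau it read -0.97, -2.11 and -1.56 beside TREM2-WT and -2.07, -1.95 and -1.57 beside TREM2-R47H. All 24 libraries with a construct lay at 0.32 or below, and the gap to the lowest library without one (3.03, elav Aβ42 replicate 3) was wider than the whole span of the 11 libraries above it. The means were 4.01 ± 0.11 (SD, n = 3) in GMR control and -2.82 ± 0.41 (SD, n = 3) in GMR TREM2-WT/TYROBP, a difference of -6.83, the largest of the 15 contrasts for this gene. The elav mean was 4.43 ± 0.17 in the control and 3.68 ± 0.56 with Aβ42 alone (SD, n = 3 each), without overlap, and Tau alone gave 4.29 ± 0.01 (SD, n = 2) in GMR.

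The background to this pattern of high and low libraries was small. Of all 14279 genes, 20 (0.14%) were lower in every one of the 24 libraries with a TREM2 construct than in all 11 without, by at least 1 log2 unit between the means. CG12164 had the widest difference of them, -5.63. The others included Ance-2 (-5.26), a relative of angiotensin-converting enzyme, CG4017 (-4.41), Osi1 of the Osiris family (-4.39) and CG18735 (-3.91). The C-type lectin gene lectin-22C (-2.99) and resilin (-2.16), which codes for the elastic protein of cuticle, were also there. The cuticle protein genes Cpr64Aa, Cpr66D and Cpr72Ec differed by -1.54, -1.75 and -1.60. In the other direction 4 genes (0.028%) were higher in all 24 libraries: y, the yellow gene of cuticle pigment (4.28), CG13084 (1.82), CG13083 (1.75) and CG32444 (1.09). These splits were chosen after the values were seen and carry no test.

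**Figure D2:**
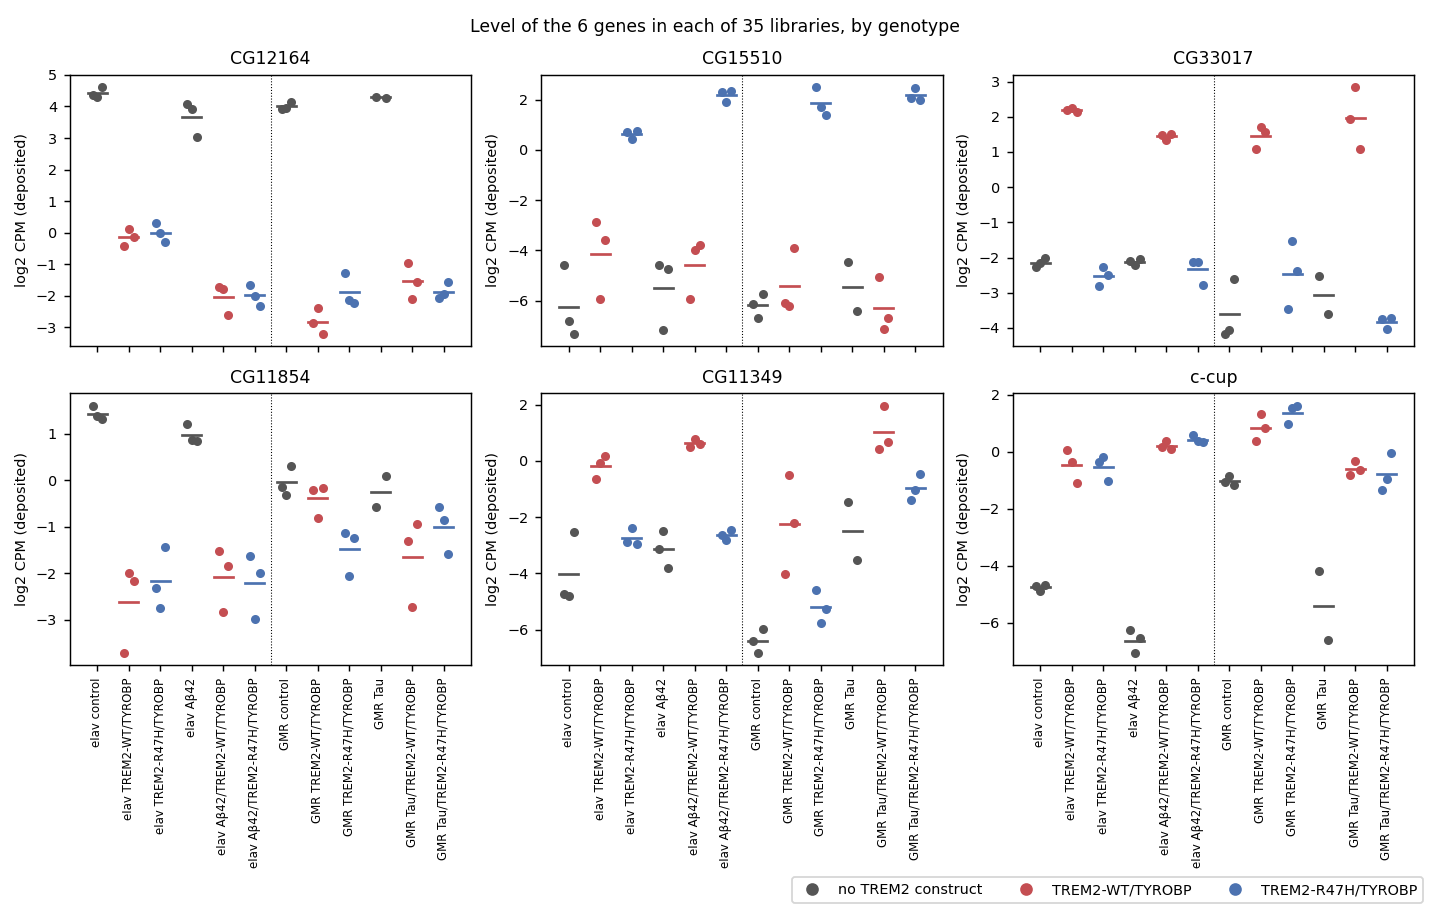
Deposited log2 CPM (vertical axis) of each of the 6 genes by genotype (horizontal axis), with a point per library, a bar at the genotype mean and a dotted line between the elav and GMR genotypes. CG12164 is at 3.03 or above without a TREM2 construct and at 0.32 or below with one, CG15510 is above 0 in the 12 TREM2-R47H libraries alone and CG33017 in the 12 TREM2-WT libraries alone.

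CG11854 was also lower with the constructs, clearly so in elav heads and less so in GMR heads. It read 1.60, 1.37 and 1.31 in elav control and 1.201, 0.86 and 0.84 in elav Aβ42, the highest genotypes for this gene. With the constructs in elav it read -3.71, -1.995 and -2.17 for TREM2-WT and -2.31, -2.74 and -1.43 for TREM2-R47H. Beside Aβ42 the values were -1.53, -2.83 and -1.85 for TREM2-WT and -1.62, -2.98 and -2.003 for TREM2-R47H. In elav heads, then, all 6 libraries without a construct stood at 0.84 or above and all 12 with a construct at -1.43 or below.

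The GMR libraries were closer together. They read -0.14, -0.31 and 0.32 in the control, -0.58 and 0.08 in Tau, -0.20, -0.81 and -0.16 with TREM2-WT, and -1.14, -2.06 and -1.25 with TREM2-R47H. With Tau they read -1.30, -2.72 and -0.93 beside TREM2-WT and -0.57, -0.85 and -1.58 beside TREM2-R47H. Here libraries with and without a construct overlapped. GMR TREM2-WT/TYROBP overlapped its control (-0.39 ± 0.36 against -0.04 ± 0.32, SD, n = 3 each), although its replicate 2 (-0.81) lay below every control library. Only TREM2-R47H against control and Tau/TREM2-WT against Tau were free of overlap. The largest difference was in elav, from 1.43 ± 0.15 in the control to -2.63 ± 0.94 with TREM2-WT/TYROBP (SD, n = 3 each), a change of -4.05. The controls of the drivers also differed, by 1.47 in favour of elav.

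c-cup was higher with either construct than in the matching genotype without one, and its level without one differed between genotypes. It read -4.70, -4.88 and -4.68 in elav control and -6.28, -7.06 and -6.55 in elav Aβ42, the latter at the bottom of the measured range. With the constructs in elav it read 0.05, -0.37 and -1.09 (TREM2-WT) and -0.36, -0.18 and -1.01 (TREM2-R47H). Beside Aβ42 it read 0.18, 0.37 and 0.09 (TREM2-WT) and 0.58, 0.36 and 0.34 (TREM2-R47H). All 12 elav libraries with a construct stood above all 6 without, by more than 3 log2 units at the closest.

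In GMR heads c-cup was already present in the control, at -1.06, -0.86 and -1.18, and not in Tau, at -4.19 and -6.62. The constructs gave 0.38, 1.32 and 0.84 (TREM2-WT) and 0.99, 1.52 and 1.62 (TREM2-R47H) without Tau, the highest levels of this gene. With Tau they gave -0.81, -0.33 and -0.63 (TREM2-WT) and -1.36, -0.95 and -0.05 (TREM2-R47H), of which only TREM2-R47H overlapped the GMR control. The low set of c-cup thus held 8 libraries of 3 genotypes (elav control, elav Aβ42 and GMR Tau), and the other 27 libraries lay between -1.36 and 1.62. Its largest difference of the 15 contrasts was 7.06, between elav Aβ42 (-6.63 ± 0.40) and elav Aβ42/TREM2-R47H/TYROBP (0.43 ± 0.13, SD, n = 3 each). With Tau alone the GMR mean was -4.37 apart from the control (control -1.03 ± 0.16, n = 3; Tau -5.41 ± 1.72, n = 2; SD), while the constructs differed from each other by at most 0.53 within a background.

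CG15510 was above 0 with TREM2-R47H and at -2.88 or below in every library of the other genotypes. Its TREM2-R47H libraries read 0.70, 0.43 and 0.75 in elav and 2.30, 1.92 and 2.35 in elav with Aβ42. In GMR they read 2.505, 1.72 and 1.40, and 2.06, 2.48 and 1.99 with Tau. The level was thus lower in elav TREM2-R47H/TYROBP than in the other TREM2-R47H genotypes, with no overlap. TREM2-WT libraries read -2.88, -5.93 and -3.58 in elav, -5.95, -4.01 and -3.81 with Aβ42, -6.11, -6.21 and -3.89 in GMR, and -5.05, -7.14 and -6.69 with Tau. Without a construct they read -4.60, -6.80 and -7.33 (elav control), -4.59, -7.18 and -4.76 (elav Aβ42), -6.14, -6.69 and -5.73 (GMR control) and -4.47 and -6.41 (GMR Tau). The low libraries scatter by up to 4.45 between them, but none came within 3 log2 units of a TREM2-R47H library.

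Of the 15 contrasts, CG15510 had its largest difference between Tau/TREM2-R47H/TYROBP (2.18 ± 0.27) and Tau/TREM2-WT/TYROBP (-6.29 ± 1.10, SD, n = 3 each), at 8.47. Of all genes, 10 (0.07%) were higher in all 12 TREM2-R47H libraries than in the other 23 by at least 1 log2 unit. CG15510 (7.19) and CG42592 (6.39) had the widest differences, followed by CR41509 (4.56), CG31093 (3.85), CR46015 (3.001), CG4073 (2.95), CR43633 (2.83), Desi (2.21), the meiotic recombination gene rec (1.49) and CG11453 (1.39). Of the 10, 9 lie on 3R, the arm of 24.1% of the genes in the table, and CR41509 is on Y. The TREM2-R47H construct and the chromosomes of its stock cannot be told apart here.

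CG33017, for which the deposited table gives GPATCH8 as the human counterpart, showed the reverse: it was on with TREM2-WT only. Its TREM2-WT libraries read 2.20, 2.26 and 2.14 in elav, 1.49, 1.34 and 1.51 with Aβ42, 1.08, 1.71 and 1.57 in GMR, and 1.93, 2.85 and 1.10 with Tau. TREM2-R47H libraries read -2.80, -2.28 and -2.50 in elav, -2.12, -2.12 and -2.77 with Aβ42, -3.47, -1.54 and -2.39 in GMR, and -3.73, -4.04 and -3.71 with Tau. Libraries without a construct read -2.27, -2.15 and -2.01 (elav control), -2.10, -2.23 and -2.06 (elav Aβ42), -4.17, -4.06 and -2.62 (GMR control) and -2.52 and -3.60 (GMR Tau). The 12 TREM2-WT libraries, at 1.08 or above, were separated from the other 23, at -1.54 or below.

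The off level of CG33017 was tight in elav without a construct (SD 0.09 to 0.13) and lower and wider in GMR control (-3.62 ± 0.86, SD, n = 3). Its largest difference of the 15 contrasts was -5.79, from 1.96 ± 0.88 in GMR Tau/TREM2-WT/TYROBP to -3.83 ± 0.18 in GMR Tau/TREM2-R47H/TYROBP (SD, n = 3 each). Only 6 genes (0.042%) were higher in all 12 TREM2-WT libraries than in the other 23 by at least 1 log2 unit. These were CG33017 (4.53), the C-type lectin gene lectin-30A (3.64), CR45339 (1.35), CG43789 (1.30), CG11893 (1.19) and CG14137 (1.11). They lie on 4 arms (2 on 2L, 2 on 2R, and the others on 3L and 3R). In the other direction, only CG43915 on 3L was lower in all 12 by that limit (-3.42). lectin-30A read 0.20 to 1.40 in the 12 TREM2-WT libraries and -5.93 to -1.92 in the other 23.

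CG11349 was graded rather than switched. In elav heads it was higher with TREM2-WT alone: -0.64, -0.06 and 0.18 without Aβ42, and 0.50, 0.78 and 0.59 with it. The other elav libraries read -4.72, -4.80 and -2.53 (control), -3.13, -2.51 and -3.79 (Aβ42), -2.88, -2.39 and -2.94 (TREM2-R47H) and -2.64, -2.83 and -2.46 (Aβ42/TREM2-R47H). All 6 TREM2-WT libraries in elav stood at -0.64 or above and the other 12 at -2.39 or below. The control libraries spread over more than 2 units, with replicate 3 apart from replicates 1 and 2.

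In GMR heads CG11349 was higher with TREM2-WT and with Tau. The control read -6.40, -6.82 and -5.99, and TREM2-R47H -4.59, -5.74 and -5.27. TREM2-WT read -4.01, -0.51 and -2.21, and Tau -1.47 and -3.50. With both, Tau/TREM2-WT read 0.44, 1.96 and 0.67, and Tau/TREM2-R47H -1.40, -1.03 and -0.46. Genotype means ordered from low to high were GMR control (-6.40 ± 0.42), TREM2-R47H (-5.20 ± 0.58), Tau (-2.49 ± 1.44, n = 2), TREM2-WT (-2.25 ± 1.75), Tau/TREM2-R47H (-0.96 ± 0.48) and Tau/TREM2-WT (1.02 ± 0.82, SD, n = 3 unless given). Tau and TREM2-WT overlapped in this order. In GMR TREM2-WT, replicates 1 (-4.01) and 2 (-0.51) lay about equally far from the group mean, and replicate 1 is the library with the highest sum of back-transformed values. Of the 15 contrasts the largest difference was 4.16, of GMR TREM2-WT/TYROBP over GMR control, and Tau alone gave 3.91. The GMR control libraries lie at the bottom of the measured range. The sizes of these differences and of the range of CG11349 therefore depend on how the smallest values were treated.

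Values moved with RIN within genotypes, by 0.35 per RIN unit for CG12164, 0.68 for CG15510, 0.73 for CG11854, -0.73 for c-cup, -1.04 for CG33017 and -1.04 for CG11349, against a median absolute slope of 0.10 over all genes. RIN ran from 5.6 to 7.5. No range of the 6 genes moved beyond the spread between libraries when it was computed at equal RIN. The part of RIN in the single libraries was not tested.

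Neighbours on the chromosome were tested to see how far each change reached, in the contrast in which the gene itself differed the most. A neighbour is a gene that lies at least in part within 50 kb, and it was called where limma gave a Benjamini-Hochberg adjusted p under 0.05 over all 14279 genes and a fold above 1.2. Fold changes are at equal RIN. Of 108 neighbours, 7 were called, 2 beside CG15510 and 5 beside CG11854, and none of the neighbours of the other 4 genes. In the contrasts used, 2.07% to 6.16% of all genes were called. With 5 to 24 neighbours each, a count of 0 beside the other 4 genes is near these shares. As CG15510 and CG33017 were tested in the same contrast, their neighbours share its libraries.

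Beside CG12164, 0 of 5 neighbours were called in GMR TREM2-WT/TYROBP against control, where 4.69% of all genes were, and 2 had an unadjusted p under 0.05. Incenp, of the chromosomal passenger complex, had a log2 fold change of 1.87 ± 0.79 (SE, adjusted p = 0.16). The changes of pwn (-0.29 ± 0.11, SE) and of Dscam1 (-0.11 ± 0.07, SE), a cell surface receptor of neurons, also missed the threshold. Without GMR control replicate 3, 1 neighbour was called.

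Beside CG15510, 2 of 24 neighbours were called between the TREM2-R47H and TREM2-WT genotypes with Tau, against 2.07% of all genes. CG42592, which overlaps it on the other strand, rose by 6.68 ± 0.61 (SE, adjusted p = 2.4e-07 in limma). Reads of the 248 exonic bases that CG42592 shares with CG15510 cannot be assigned to either gene, so this call is not independent of CG15510 itself. CG42592 stood between -1.36 and 1.16 in the 12 TREM2-R47H libraries and between -7.27 and -4.50 in the other 23, so its libraries split as those of CG15510 did. Atg16, an autophagy gene that ends 848 bases before CG15510, rose by 0.35 ± 0.05 (SE, adjusted p = 0.00011 in limma), from 4.70 ± 0.05 to 5.17 ± 0.14 (SD, n = 3 each). Among the neighbours not called, CG7829 had 0.93 ± 0.87 and neo, of the cuticle-shaping zona pellucida proteins, 0.87 ± 0.29 (SE). No other neighbour within 50 kb was called.

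Beside CG33017, 0 of 24 neighbours were called in the same contrast, where 2.07% of all genes were, and 2 had an unadjusted p under 0.05. Khc, the kinesin heavy chain gene that ends 142 bases before it, read 7.67 and 7.66 in the genotypes compared, a log2 fold change of -0.01 ± 0.03 (SE). The largest changes among these neighbours were CG9068 at 1.16 ± 0.86, CG7786 at 1.07 ± 1.08 and CG30324 at -0.51 ± 0.44 (SE), each with a mean below 0 in both genotypes.

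Beside CG11854, 5 of 33 neighbours were called in elav TREM2-WT/TYROBP against control, against 4.01% of all genes, 3 lower and 2 higher. The takeout gene (to) ends 351 bases before CG11854 and fell by 3.74 ± 0.19 on the log2 scale (SE, adjusted p = 3.2e-12 in limma). CG31300 fell by 0.76 ± 0.07 and CG31103 by 0.30 ± 0.06 (SE). CG11893 rose by 1.96 ± 0.08 (SE, adjusted p = 8.0e-14 in limma) and RIOK2, a kinase of ribosome assembly, by 0.32 ± 0.07 (SE). The germline gene bam, which overlaps CG11854 on the other strand, had 1.63 ± 1.05 (SE, adjusted p = 0.43 in limma). Its mean was already -5.50 in the control, which left little room for a lower level. With only the elav libraries in the fit, 3 neighbours of CG11854 were called.

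Beside CG11349, 0 of 9 neighbours were called in GMR TREM2-WT/TYROBP against control, where again 4.69% of all genes were, and 2 had an unadjusted p under 0.05. The largest were CG13722 (-0.83 ± 0.29), CG15022 (-0.67 ± 0.78) and NT1, a neurotrophin (-0.44 ± 0.44, SE). In turn, 1 neighbour was called without GMR TREM2-WT/TYROBP replicate 1, without its replicate 2 or without GMR TREM2-R47H/TYROBP replicate 1. Beside c-cup, 0 of 13 were called in elav Aβ42/TREM2-R47H/TYROBP against Aβ42, where 6.16% of all genes were, and 3 had an unadjusted p under 0.05. The taste receptor genes Gr22d and Gr22c had 2.42 ± 1.08 and 0.71 ± 0.73, and CG31933 0.90 ± 0.78 (SE), all with means below -3.

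**Figure D3:**
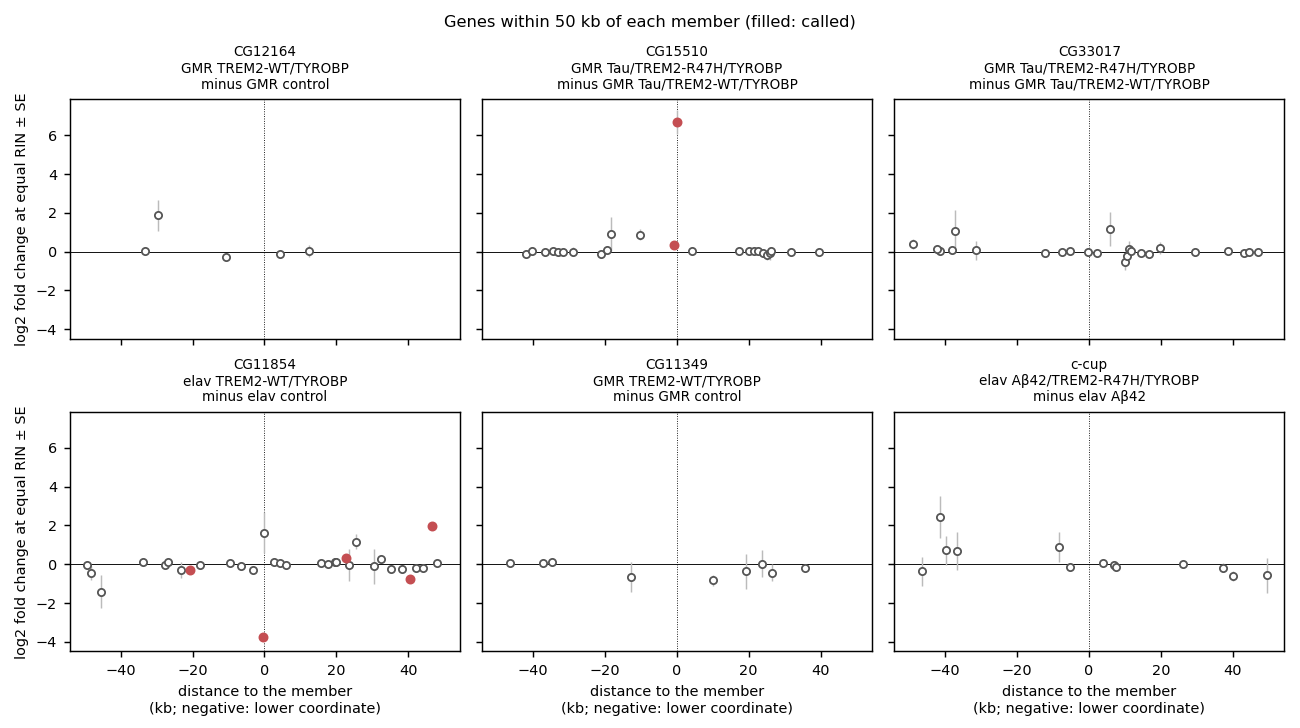
Log2 fold change at equal RIN with its SE (vertical axis) of the genes within 50 kb of each of the 6 genes, by distance in kb (horizontal axis), in the contrast named above each panel, with called genes filled in red. CG42592, which overlaps CG15510, moved by 6.68, and to, which lies next to CG11854, by -3.74. The 4 other panels hold no called gene.

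The takeout gene followed CG11854 across the whole series. takeout is a secreted protein of the head fat body and the antennae, known for higher expression in male than in female heads and for its link to feeding and courtship. In elav heads it read 5.85 to 6.90 in the 6 libraries without a construct and 3.23 to 4.33 in the 12 with one. In GMR heads it read 5.29 to 6.31 in 5 libraries and 3.70 to 5.56 in 12, so that the sets overlapped. The correlation of CG11854 with to was 0.973 over the 12 genotype means and 0.926 over the 35 libraries, which share their depth, RIN and driver. The fall of to with TREM2-WT/TYROBP was smaller in GMR (-0.87) than in elav (-3.74), a difference of 2.86 ± 0.27 (SE, adjusted p = 4.2e-07 in limma). With TREM2-R47H/TYROBP the changes were -0.77 and -3.52, a difference of 2.76 ± 0.32 (SE, adjusted p = 2.8e-05 in limma). The sex markers of the drivers stand apart in the same way, and their part in this difference was not tested.

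**Figure D4:**
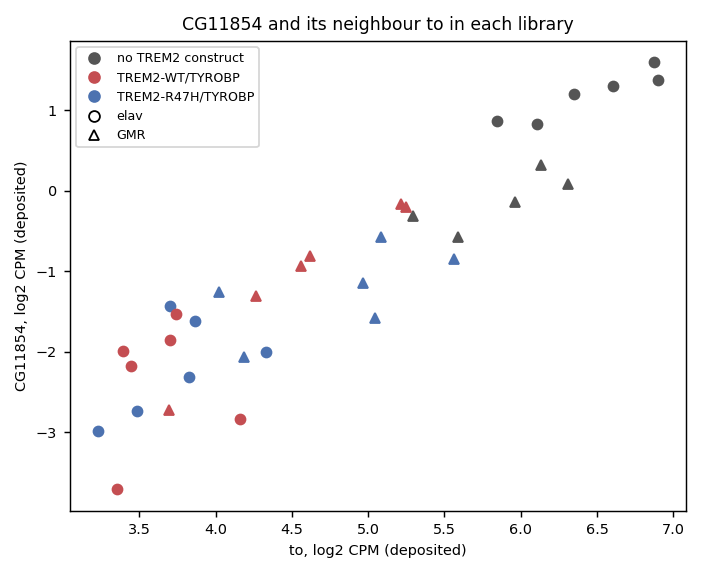
Deposited log2 CPM of CG11854 (vertical axis) against that of to (horizontal axis) in each of the 35 libraries, with circles for elav, triangles for GMR and colours for the TREM2 construct. The elav libraries without a construct form the upper right (to at 5.85 or above, CG11854 at 0.84 or above), and the elav libraries with a construct lie at 4.33 or below for to and at -1.43 or below for CG11854.

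Of the 19 other listed genes of the takeout family, 7 fell, 0 rose and 12 were not called in elav TREM2-WT/TYROBP against control, where 4.01% of all genes were called (360 lower and 213 higher). With only the elav libraries in the fit, 4 were called. The family binds small lipid-like ligands, as the juvenile hormone binding proteins of moths do. The median log2 fold change over the 19 was -0.15, against 0.00 over all genes. The genes that fell beside to were CG10264 (-2.46 ± 0.39), CG2650 (-2.07 ± 0.18), CG14457 (-1.42 ± 0.29), CG17189 (-0.62 ± 0.09), CG5945 (-0.38 ± 0.07) and CG14661 (-0.35 ± 0.09, SE). CG14259 (-0.25 ± 0.06, SE) passed the adjusted p (0.0094 in limma) but not the fold of 1.2. Since CG10264, CG2650 and CG14457 are also among the 20 genes that were lower in every library with a construct, they were lower in both drivers. CG2650 read 3.20 to 4.22 in the 11 libraries without a construct and 0.02 to 2.10 in the 24 with one.

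CG2650 fell further in GMR heads than in elav heads, unlike to. With TREM2-WT/TYROBP it fell by 3.15 in GMR and fell by 2.07 in elav on the log2 scale, a difference of -1.08 ± 0.24 (SE, adjusted p = 0.018 in limma). With TREM2-R47H/TYROBP it fell by 3.69 in GMR and fell by 2.23 in elav, a difference of -1.46 ± 0.29 (SE, adjusted p = 0.015 in limma). With TREM2-WT the change of CG10264 was -2.46 in elav and -1.77 in GMR, with a difference of 0.69 ± 0.54 (SE, adjusted p = 0.66 in limma), which does not show that the drivers act alike on it.

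**Figure D5:**
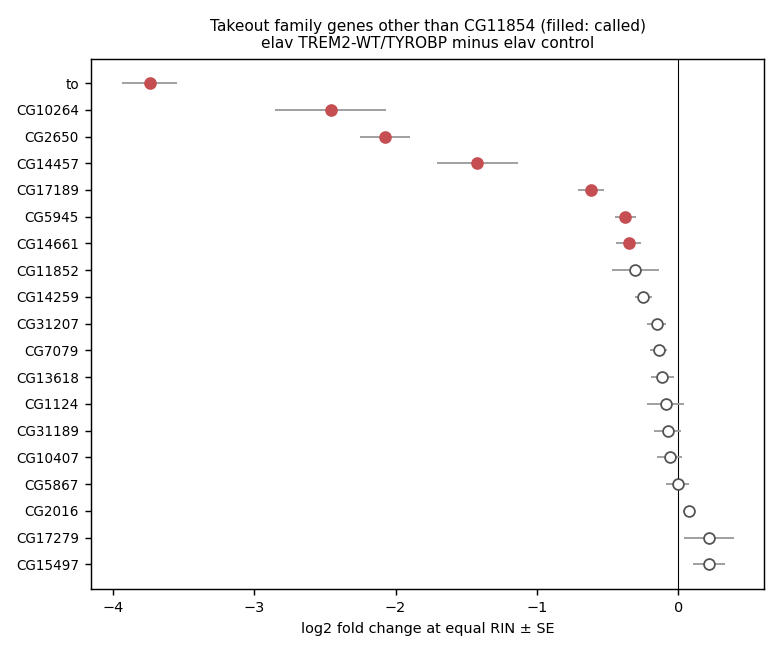
Log2 fold change at equal RIN with its SE (horizontal axis) of the 19 listed takeout family genes other than CG11854 in elav TREM2-WT/TYROBP against elav control, with called genes filled in red. All 7 called genes are lower, from -0.35 (CG14661) to -3.74 (to), and the genes that are higher reach 0.22.

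Among the other comet and cup genes, 1 was called. Of 15 listed, 12 are in the table, and in elav Aβ42/TREM2-R47H/TYROBP against Aβ42 only boly was called, with a fall of 0.73 ± 0.15 on the log2 scale (SE, adjusted p = 0.0017 in limma). With 6.16% of all genes called in that contrast, this count is near the share over all genes. The other 11 were not called. The largest changes among them were those of p-cup at 1.58 ± 0.76, wider than that of boly, and soti at -0.62 ± 0.81 (SE). The median over the 12 was 0.07. Of 11 testis markers in the table, 6 stayed under -1 in all elav libraries and 5 in all GMR libraries. The summed level of the 11 ran from 3.14 to 3.68 in elav and from 3.24 to 4.15 in GMR, with twe, a phosphatase of meiosis, at 2.28 to 3.44 making up most of it. In elav control and elav Aβ42, where c-cup was at -4.68 or below, that sum was 3.14 to 3.39 and 3.50 to 3.60. It was 3.33 to 3.68 in the elav genotypes with a construct. With TREM2-WT/TYROBP alone it lay above the matching control without overlap. It was 3.49 to 3.65 in elav, and in GMR 3.81 or above against 3.24 to 3.46 in the control. With TREM2-R47H/TYROBP alone it overlapped the control in both drivers. Beside Aβ42 or Tau, the sum with either construct overlapped that of Aβ42 or Tau alone. These differences of the sum were not tested.

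Genes whose 12 genotype means went most like those of each of the 6 were sought among the 1674 genes with a range of at least 2 log2 units. They are named as a description, with Pearson's r over 12 means that share libraries. CG12164 was most like Ance-2 (r = 0.963), CG14488 (0.961) and lectin-22C (0.956). CG15510 was most like CG42592 (0.992), CR46015 (0.953) and CR41509 (0.949). CG33017 was most like lectin-30A (0.946), CR45441 (0.941) and CR45340 (0.936). After to, CG11854 was most like Osi1 (0.860) and CG18735 (0.856).

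For c-cup the closest were ItgalphaPS5, an integrin subunit (0.937), y (0.922) and CR44826 (0.894). Like c-cup, y was higher in GMR control (1.14 ± 0.12) than in elav control (-1.25 ± 0.28) and lower in Tau (0.32 ± 0.08, n = 2) and Aβ42 (-1.64 ± 0.10, SD, n = 3 unless given) than in the matching control. CG11349 had no close match, with lectin-30A at 0.781, CR45925 at 0.733 and CR45441 at 0.723. to and CG42592 lie within 1 kb of the gene they resemble, and the next on the same arm, CR45441, is 1.58 Mb away from CG11349.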

How the data were processed

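RNA from fly heads was sequenced in 35 libraries. Per the methods, reads were aligned with STAR 2.5.0b to BDGP6, counted per gene with featureCounts, and scaled by TMM. The deposited values are log2 CPM of 14279 genes, which the authors also adjusted for RIN. The values have no slope on RIN over all libraries together, so genotype and RIN were fitted jointly. limma 3.58.1 in R 4.3.3 fitted 12 genotypes and RIN over all 35 libraries, with 22 residual degrees of freedom. A call needed a fold above 1.2 and an adjusted p (Benjamini-Hochberg) below 0.05. Depth is unknown, so precision rests on the spread between libraries. Positions were taken from the deposited table, and 98.4% of the IDs found in Ensembl release 115 had the same span. Plots used matplotlib 3.10.9 and pandas 2.3.3. The code was tested on simulated data.

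The members, gene lists and tests were chosen with earlier results of these data known. Named genes are the 6 genes, the called or 3 most changed genes of the takeout and comet and cup lists, and per gene the 3 most changed neighbours and the 3 genes most alike. Other genes named in the splits by construct, as neighbours called or as nearest neighbour (Khc) were chosen after their values were seen. Alternatives were other treatment of RIN, scaling, pseudocount, filter, libraries, variance model, fold threshold and window, the replicate block, and each library left out in turn. No sequence is printed.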

Additional observations from a re-analysis of the deposited data

Results flagged for a closer look

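Effects that differed between the GMR and elav drivers were picked out among the neighbours and listed families, each as the log2 effect in GMR less that in elav, with limma's adjusted p for the difference. For TREM2-WT/TYROBP they were to (2.86, adjusted p = 4.2e-07), CG11893 (-0.65, 0.0026), CG31300 (0.45, 0.011), CG2650 (-1.08, 0.018) and CG17189 (0.53, 0.028). For TREM2-R47H/TYROBP they were to (2.76, adjusted p = 2.8e-05), Atg16 (0.45, 0.0035) and CG2650 (-1.46, 0.015). All of these estimated effects had the same sign in both drivers and differed in size. CG11893 rose by 1.96 in elav and 1.31 in GMR, CG31300 fell by 0.76 and 0.31, and Atg16 with TREM2-R47H changed by 0.19 and 0.65. For CG17189, which fell by 0.62 in elav, the GMR libraries overlapped (4.22 to 4.54 in the control, 4.14 to 4.31 with TREM2-WT/TYROBP). A fall of CG17189 in GMR is thus not shown. The drivers also differ in sex markers, and the part of these was not tested.

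CG33017 moved in opposite directions with TREM2-R47H/TYROBP, with means 1.15 higher than the control in GMR and 0.39 lower in elav. The opposite signs did not hold at equal RIN, where the means were -3.13 and -3.45 in GMR (TREM2-R47H/TYROBP, control) and -2.19 and -2.32 in elav. This difference was not tested, because the values of CG33017 chose it, and in GMR the libraries overlapped.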

How the results depend on the processing

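The ranges of the 6 genes stayed within the spread between libraries at equal RIN, with quantile normalization, with centred libraries, with medians and without the libraries of RIN 6 or lower, the last chosen after seeing the data. Adding 1 on the linear scale shrank them, as its construction does for low values, to 4.30 (CG12164), 2.45 (CG15510), 2.39 (CG33017), 1.65 (CG11854), 1.61 (CG11349) and 1.84 (c-cup). With each library left out in turn they ran from 7.06 to 7.46, 8.43 to 9.25, 5.93 to 6.32, 3.63 to 4.37, 7.03 to 7.71 and 7.79 to 8.20 in the same order. A mean of at least 0 leaves only CG12164. The 7 neighbours called became 3 above a log2 fold change of 1, 3 within 20 kb and 18 within 200 kb, and 6 to 9 with a library left out. The 7 takeout family genes became 4 above a log2 fold change of 1 and 4 with only the libraries of the same driver, and 6 to 8 with a library left out. The 1 comet and cup gene became 0 above a log2 fold change of 1 and stayed 1 with any library left out.

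In the contrasts used for the tests, the deviations of same-numbered libraries from their genotype means had correlations of -0.45 to 0.15. Deviations from means of so few libraries cannot settle whether the numbers pair samples. With the replicate number as a block, 7 neighbours, 7 takeout family genes and 1 comet and cup gene were called. Unknown depth limits what can be said of levels near the bottom of the range.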
